A study of Mus musculus with 10 samples.

Results

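The 39 genes described here act on repressive marks of mammalian chromatin, and some of them remove such marks. They code for the Polycomb complexes, the H3K27 demethylases, the writers and readers of H3K9 methylation and the enzymes that place or remove DNA methylation. They were taken by symbol from the deposited gene table, which held all 39 members among its 55421 identifiers, and all 39 passed the filter on low counts that 22449 genes passed. The measurement was poly(A) RNA-seq of whole liver from 10 male C57BL/6 mice injected at 6 months of age and taken 3 weeks later. In the 4 H3.3 KO mice, H3f3a fl/fl and H3f3b fl/fl alleles met AAV8 Tbg-Cre, a virus whose Tbg promoter restricts Cre to hepatocytes, so the other liver cells in the same RNA kept both genes. The 3 WT Cre controls were wild-type mice given AAV8 Tbg-Cre, and the 3 MCS controls carried the floxed alleles and received AAV8 Tbg-MCS, which has no Cre. The genotype field of the KO and MCS samples reads HIRA fl/fl, while H3f3a and H3f3b are the genes in their titles. The RNA of the 2 H3.3 genes was low in the samples titled as floxed with Cre: H3f3a stood at 25.7% to 30.6% and H3f3b at 24.9% to 35.4% of the control mean in the 4 KO livers. Libraries held 14998426 to 26096141 counts, with KO 1 the shallowest.

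Polycomb repressive complex 2 (PRC2) methylates lysine 27 of histone H3, and Polycomb repressive complex 1 (PRC1) ubiquitinates histone H2A and reads the PRC2 mark through its CBX subunits. H3K9 methyltransferases mark constitutive heterochromatin, transposable elements and silent genes, and HP1 proteins bind that mark. DNMT3A and DNMT3B set DNA methylation, DNMT1 with UHRF1 copies it onto newly made strands, and TET enzymes oxidise it. In the adult liver most hepatocytes rest outside the cell cycle, and the factors that copy marks at the replication fork are then sparsely expressed.

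Promoter sequences of 4 members are shown because they carry the letters that were searched for in all promoters. Sequences come from RefSeq (GRCm38.p6) and run from 250 bases before to 50 bases after the annotated start, 5′ to 3′ on the gene's own strand. Capitals in the first 3 mark an E2F site, searched as TTTCGCGC or TTTGGCGC on both strands. Capitals in the Resf1 promoter, which has no such site, mark its 2 CCAAT sites on either strand. CCAAT is not particular to Resf1: the windows shown hold 2 sites for Uhrf1, 3 for Dnmt1 and 3 for Ezh2, left in lower case. The windows are chr17:56304063-56304362 on the plus strand for Uhrf1, chr9:20952574-20952873 on the minus strand for Dnmt1, chr6:47594981-47595280 on the minus strand for Ezh2 and chr6:149309164-149309463 on the plus strand for Resf1.
Uhrf1: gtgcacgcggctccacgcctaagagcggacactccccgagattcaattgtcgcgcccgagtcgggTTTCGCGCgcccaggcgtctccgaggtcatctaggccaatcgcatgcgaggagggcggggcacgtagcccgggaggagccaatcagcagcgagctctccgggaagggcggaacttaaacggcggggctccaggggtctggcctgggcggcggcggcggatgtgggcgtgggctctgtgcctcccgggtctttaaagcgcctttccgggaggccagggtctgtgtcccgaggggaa
Dnmt1: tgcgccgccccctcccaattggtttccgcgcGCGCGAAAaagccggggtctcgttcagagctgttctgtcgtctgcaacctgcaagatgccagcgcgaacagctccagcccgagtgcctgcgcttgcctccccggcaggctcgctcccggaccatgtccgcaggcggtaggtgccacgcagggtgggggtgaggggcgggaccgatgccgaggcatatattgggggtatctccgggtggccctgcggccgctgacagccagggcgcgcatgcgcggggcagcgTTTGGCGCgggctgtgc
Ezh2: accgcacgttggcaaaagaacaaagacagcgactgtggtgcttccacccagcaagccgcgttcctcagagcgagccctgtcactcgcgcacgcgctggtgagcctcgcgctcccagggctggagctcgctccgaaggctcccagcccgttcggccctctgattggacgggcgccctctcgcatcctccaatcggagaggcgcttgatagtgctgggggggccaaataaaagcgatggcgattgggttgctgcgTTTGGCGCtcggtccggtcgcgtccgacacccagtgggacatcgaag
Resf1: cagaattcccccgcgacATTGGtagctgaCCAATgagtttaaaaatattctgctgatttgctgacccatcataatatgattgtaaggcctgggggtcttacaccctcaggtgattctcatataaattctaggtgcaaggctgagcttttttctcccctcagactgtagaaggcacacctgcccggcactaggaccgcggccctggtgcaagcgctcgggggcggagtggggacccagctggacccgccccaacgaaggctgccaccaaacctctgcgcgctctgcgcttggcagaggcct

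Entries were found for 37 of the 39 members, with 50 promoters in all. An E2F site stood in 4 of those 50 windows (8.0%), a window each of Uhrf1, Dnmt1, Ezh2 and Cbx3, against 0.813% of all 32851 promoters of that length. Uhrf1, Dnmt1 and Cbx3 also have windows at other annotated starts, and those had no such site. The member windows were also richer in CpG, with a median of 28.5 CpG against 7 in all promoters. CCAAT was in 46.0% of member windows against 37.4% of all, and TTTGAA, the core of the CHR element of late cell cycle genes, in 14.0% against 17.9%. Of the 4 genes with an E2F site, Uhrf1 and Dnmt1 were higher in KO livers, while Ezh2 and Cbx3 did not pass the test. A match gives the letters only and does not show that a factor binds there.

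In the KO livers 12 of the 39 members were higher and 5 were lower than in the 6 controls, and 22 did not pass the test. Deposited counts were tested with edgeR's quasi-likelihood method, and each adjusted p below is a Benjamini-Hochberg value from that fit over all 22449 genes. The members called higher were Resf1, Uhrf1, Dnmt3a, Hells, Cbx6, Morc3, Dnmt1, Cbx8, Phc2, Bmi1, Setdb1 and Kdm6a. The members called lower were Rbbp4, Rbbp7, Ehmt2, Ehmt1 and Cbx1. That is 30.8% higher and 12.8% lower, beside 19.7% higher and 16.6% lower of all genes tested. Only Resf1, Uhrf1 and Dnmt3a changed by more than 1 on the log2 scale, all upwards, which is 7.69% of the members beside 12.9% of all genes for that rise and 5.79% for the matching fall. The median log2 fold change of the members was 0.086 and that of all genes was -0.003. All 4 KO livers lay above all 6 controls for 8 members (20.5%, against 12.5% of all genes) and below all 6 for 7 members (17.9%, against 12.0%). Scaling by library size alone shifted the median of all genes to 0.17 and gave 14 members higher and 3 lower. The direction of small changes below therefore depends on the scaling, and Ezh2, Suz12, Cbx7 and Trim28, none of them called, changed sign under that setting. The labels number the replicates and give no animal identity, so p-values measure the spread between these samples. Whole liver was measured, and fewer cells of a type and less RNA per cell cannot be told apart.

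**Figure D1:**
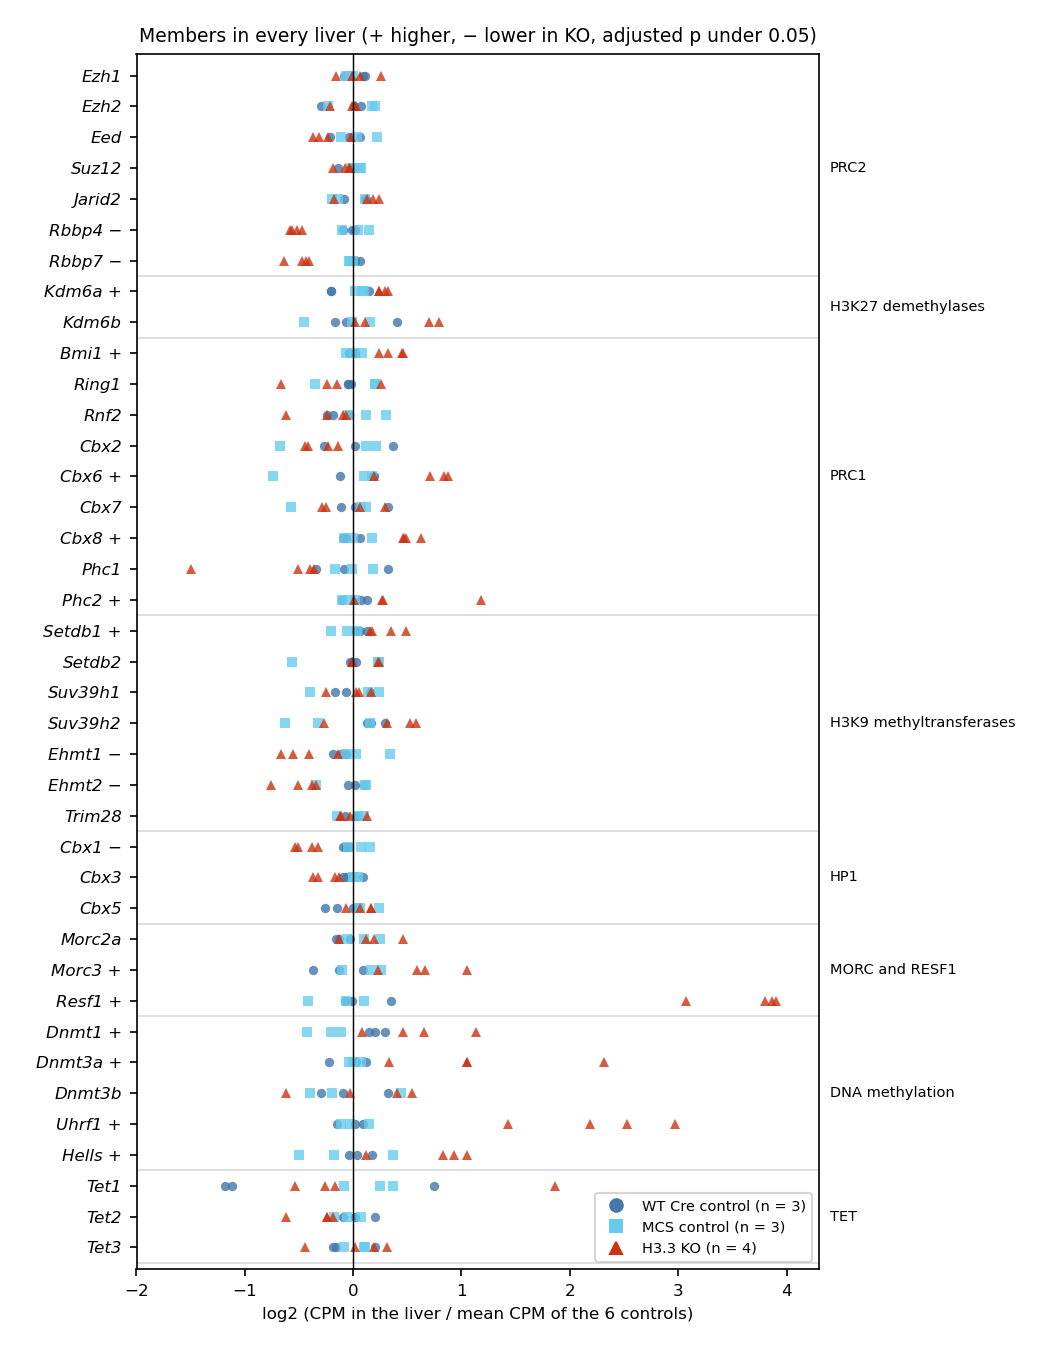
All 39 members in every liver, grouped by class. Each point is 1 liver, and the horizontal axis is log2 of its CPM over the mean CPM of the 6 controls, with WT Cre controls as circles, MCS controls as squares and KO livers as triangles. The KO livers of Resf1 and Uhrf1 stand apart to the right, while those of Dnmt3a spread from near the controls in KO 1 to far right in KO 4. For 7 members, Rbbp4, Rbbp7, Cbx1, Ehmt2, Phc1, Cbx3 and Tet2, the 4 KO livers lie to the left of all 6 controls.

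Resf1, a partner of SETDB1 named for its part in silencing retroelements, showed the largest difference among the members. It lies at chr6:149309414-149335663 on the plus strand (GRCm38) and shares no exon with another gene. Its level was 16.9 CPM (counts scaled to TMM-adjusted library size) in the lowest, 22 CPM in the median and 28.7 CPM in the highest control. The KO livers read 329 CPM, 339 CPM, 315 CPM and 190 CPM in the order KO 1 to KO 4. The groups were far apart, with the lowest KO liver well above the highest control. The log2 fold change was 3.70 ± 0.176 (SE, 4 KO against 6 controls), a 13-fold difference with an adjusted p of 3.5e-08 by edgeR. KO 4 was the lowest of the KO livers for Resf1 although it was the highest for Dnmt3a, Uhrf1, Dnmt1, Morc3 and Phc2. Per length, Resf1 stood at 3.04 ± 0.737 FPKM (SD, n = 6) in controls, close to Ezh1 and Morc3. The gene before it, Gm10388 on the other strand 22.6 kb away, rose with it from a mean of 0.0692 to 4.53 CPM (edgeR adjusted p = 2.18e-06). Farther on that side, 1700003I16Rik was higher (0.0376 to 0.28 CPM) and Amn1 lower (log2 fold change -0.63). The 3 genes that follow Resf1 were not called.

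MORC proteins are ATPases that compact chromatin. Morc3 read 12.8 CPM, 16.5 CPM and 19.7 CPM in the lowest, median and highest control and 19.3 CPM, 24.9 CPM, 26.2 CPM and 34.1 CPM in KO 1 to KO 4. Only KO 1 fell within the control range, and Morc3 was higher in KO (log2 fold change 0.66 ± 0.153, edgeR adjusted p = 0.00445). Morc2a, which works with the HUSH silencing complex, was not called (0.17 ± 0.121).

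Among the genes for DNA methylation, 4 of 5 were higher and none was lower, beside 19.7% higher and 16.6% lower of all genes. Against the WT Cre controls alone 2 of the 5 were higher, beside 15.3% of all genes in that comparison. Uhrf1, which recognises half-methylated DNA and brings DNMT1 to it, was barely expressed in controls, at 0.564 CPM in the lowest and 0.692 CPM in the highest of the 6 (0.626 ± 0.0494, SD). KO 1 to KO 4 read 1.69 CPM, 2.85 CPM, 3.62 CPM and 4.9 CPM. Every KO liver lay above every control, and the lowest, KO 1, was also the shallowest library. The log2 fold change was 2.39 ± 0.26 (5.22-fold, edgeR adjusted p = 2.57e-05), from 11 to 128 counts per library. On log2(FPKM + 1), a scale that compresses low levels, the difference was 0.67 and still called. Uhrf1 lies at chr17:56303321-56323486 on the plus strand. Its neighbours Ptprs (log2 fold change 2.46, edgeR adjusted p = 3.72e-07), Plin3 (0.85) and Kdm4b (0.27) were higher, while Ticam1, Fem1a and Gm20219 were not called.

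Dnmt3a, the de novo methyltransferase of somatic tissues, read 13.8 CPM, 16.3 CPM and 17.5 CPM in the lowest, median and highest control. The KO livers read 20.3 CPM, 33.3 CPM, 33.3 CPM and 80.1 CPM. All 4 KO livers were above the controls but they spanned a wide range, with KO 4 far above the other 3. The log2 fold change was 1.38 ± 0.305 (2.6-fold, edgeR adjusted p = 0.00568), and without KO 4 it was 0.85 with an adjusted p of 0.000635. Dnmt3a lies at chr12:3806007-3914443 on the plus strand and shares exon sequence with the antisense gene Dnmt3aos, which was itself higher (0.0415 to 0.191 CPM), so at unstated strand settings reads of the pair could be shared. Its neighbour Dtnb was not called, while Efr3b, 48.1 kb after it, rose from a mean of 0.558 to 30.1 CPM. Dnajc27, farther on that side, was higher by 0.73 on the log2 scale, and Pomc, Dtnbos and Rps7-ps2 were not called.

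Dnmt1, the maintenance methyltransferase, read 9 CPM, 12.3 CPM and 14.8 CPM in the lowest, median and highest control and 12.8 CPM, 19 CPM, 16.6 CPM and 26.5 CPM in KO 1 to KO 4. The groups overlapped through KO 1. Dnmt1 was higher in KO (log2 fold change 0.63 ± 0.188, edgeR adjusted p = 0.0194), but without KO 4 the value was 0.41 and the adjusted p 0.0795, so the call rested on that liver. Hells, a helicase that opens nucleosomal DNA for DNMTs, was at 1.14 ± 0.229 CPM (SD, n = 6) in controls and 1.95 ± 0.494 CPM (SD, n = 4) in KO livers. The log2 fold change of Hells was 0.78 ± 0.227 (edgeR adjusted p = 0.0169). Hells lost its call without KO 3 and in the FPKM values. Dnmt3b was not called at 0.16 ± 0.249, with 19 to 66 counts per library.

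None of the 3 TET genes passed the test. Tet2 lay below all controls in all 4 KO livers, with 6.58 CPM, 8.54 CPM, 8.89 CPM and 8.53 CPM against a control minimum of 8.94 CPM, and missed the threshold (-0.31 ± 0.121, edgeR adjusted p = 0.0638). Tet3 read 18.5 ± 2.06 CPM in controls (SD, n = 6) and 13.6 CPM to 22.9 CPM in KO livers. Tet1 had only 1 to 9 counts in any library, and its log2 fold change of 0.65 ± 0.593 was about as large as its error.

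The catalytic core of PRC2 gave no call. Ezh2, the methyltransferase of dividing cells, read 4.35 ± 0.61 CPM (SD, n = 6) in controls and 4.22 ± 0.318 CPM (SD, n = 4) in KO livers. Ezh1, its counterpart in resting cells, read 15.6 ± 0.887 CPM and 16.1 ± 1.93 CPM. Both pairs of ranges overlapped. Per length, Ezh1 was the more abundant of the pair in controls, at 3.4 ± 0.382 FPKM against 1.82 ± 0.201 FPKM (SD, n = 6). The log2 ratio of Ezh2 to Ezh1 counts within each library was -1.85 ± 0.249 in controls and -1.92 ± 0.271 in KO livers, a difference of -0.069 (two-sided exact permutation p = 0.667). The scaffold genes Eed (-0.22 ± 0.109) and Suz12 (-0.076 ± 0.0804) and the cofactor gene Jarid2 (0.11 ± 0.116) were not called either.

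The histone-binding genes Rbbp4 and Rbbp7 were lower. Their proteins serve PRC2 but also NuRD, the CAF-1 chaperone and histone deacetylase complexes. Rbbp4 read 108 CPM, 116 CPM and 128 CPM in the lowest, median and highest control and 78.5 CPM, 83.4 CPM, 80.8 CPM and 77.6 CPM in KO 1 to KO 4. The KO livers clustered tightly below every control, and the log2 fold change was -0.54 ± 0.0854 (edgeR adjusted p = 0.000389). Rbbp7 read 58.9 CPM, 60.2 CPM and 63.1 CPM in controls and 44.7 CPM, 38.8 CPM, 43.4 CPM and 45.5 CPM in KO livers, again without overlap (-0.49 ± 0.0792, edgeR adjusted p = 0.000449). The ratio of Rbbp7 to Rbbp4 differed by 0.046 on the log2 scale (two-sided exact permutation p = 0.586). Both genes overlap an exon of a gene on the other strand, Sync and Gm26722 for Rbbp4 and Txlng for Rbbp7. Rbbp4 at 37 ± 4.44 FPKM and Rbbp7 at 23.3 ± 2.11 FPKM (SD, n = 6) were, with Trim28 at 27 ± 2.69 FPKM, the most abundant members per length in controls. Counts divided by annotated exon length gave the order Rbbp7, Rbbp4 and Trim28 at 20.8, 13.3 and 12.7 CPM per kb, so the ranking within these 3 depended on the length used.

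**Figure D2:**
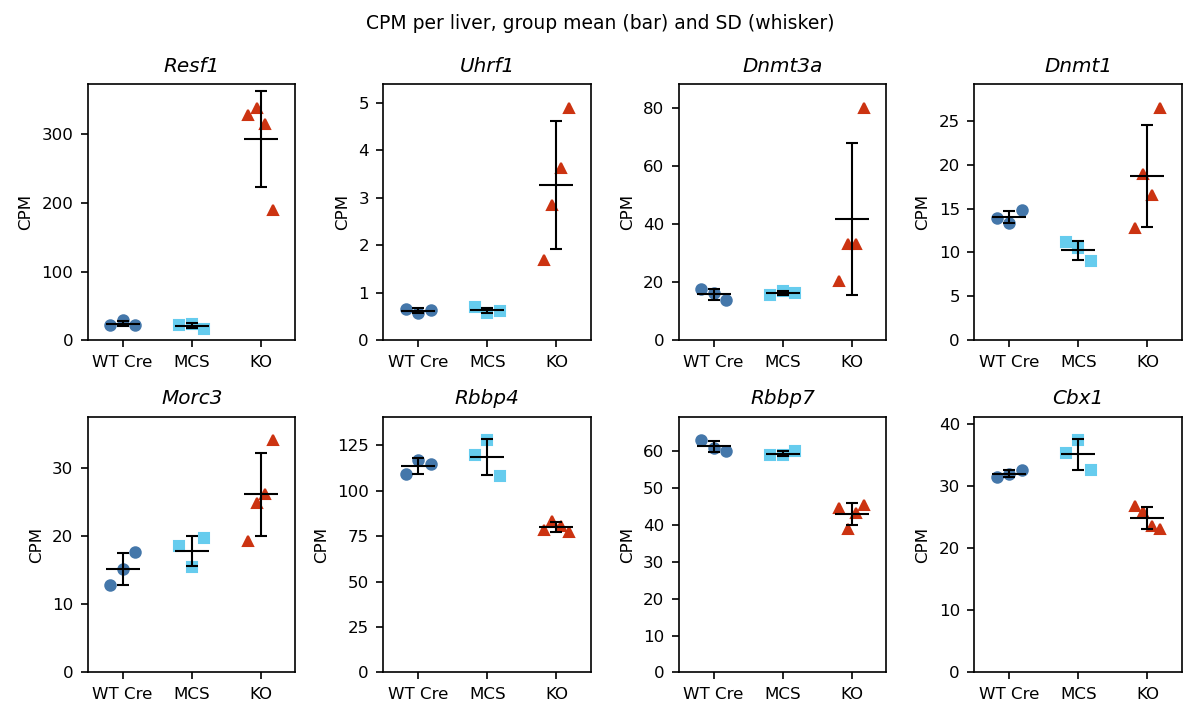
CPM of 8 members in every liver, with the group mean as a bar and the SD as whiskers (WT Cre n = 3, MCS n = 3, KO n = 4). The vertical axes start at 0. KO livers lie above all controls for Resf1, Uhrf1 and Dnmt3a and below all controls for Rbbp4, Rbbp7 and Cbx1, while for Dnmt1 and Morc3 KO 1 lies within the control range.

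Of the H3K27 demethylase genes, Kdm6a was higher by a small amount, with 9.96 CPM, 11.9 CPM and 12.7 CPM in the lowest, median and highest control and 13.6 CPM, 14.4 CPM, 14.1 CPM and 13.6 CPM in KO livers. All 4 KO livers were above the controls, and the log2 fold change of 0.28 ± 0.104 just passed (edgeR adjusted p = 0.048). Its call was lost under 10 of 17 alternatives, among them those without WT Cre 1, WT Cre 2, any MCS control, KO 2, KO 3 or KO 4. Kdm6b, the inducible demethylase, was not called (0.44 ± 0.183, edgeR adjusted p = 0.078), with KO 2 and KO 3 at 31.6 CPM and 29.7 CPM above the control maximum of 24.3 CPM and the other two within it. Its exons overlap those of the antisense gene Kdm6bos.

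In PRC1, 4 of 9 members were higher and none was lower, beside the 19.7% and 16.6% of all genes. With the WT Cre controls alone 2 of 9 (22.2%) were higher, beside 15.3% of all genes in that comparison. Cbx8, a chromodomain subunit, read 5.48 CPM, 5.72 CPM and 6.59 CPM in controls and 9.06 CPM, 8.11 CPM, 8.05 CPM and 8.22 CPM in KO livers (0.51 ± 0.11, edgeR adjusted p = 0.00305). Bmi1, the PCGF partner of the RING ligases, read 20.5 CPM, 21.6 CPM and 22.7 CPM in controls and 25.4 CPM, 29.5 CPM, 26.9 CPM and 29.4 CPM in KO livers (0.37 ± 0.0808, edgeR adjusted p = 0.0031). In both genes the KO livers sat close together and above all controls. Cbx6 was higher too (0.68 ± 0.188, edgeR adjusted p = 0.0125), although KO 1 at 5.86 CPM barely exceeded the control maximum of 5.84 CPM, and its exons overlap those of Npcd on the same strand. Phc2, a polyhomeotic subunit that polymerises PRC1, was at 78.8 CPM in KO 4 and at 34.9 CPM to 42.2 CPM in the other 3 KO livers, beside 32.3 CPM to 38.1 CPM in controls. The Phc2 value of 0.51 ± 0.185 (edgeR adjusted p = 0.0477) fell to 0.19 with an adjusted p of 0.146 without KO 4. The call was also lost without KO 2 or without any 1 of the 6 controls.

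The ubiquitin ligase genes Ring1 (-0.17 ± 0.159) and Rnf2 (-0.24 ± 0.136) were not called. Of the remaining chromodomain subunits, Cbx2 was at -0.30 ± 0.187 and Cbx7 at -0.024 ± 0.172, with ranges that overlapped. Phc1 lay below all controls in all 4 KO livers, with 0.977 CPM, 1.94 CPM, 2.15 CPM and 2.1 CPM against a control minimum of 2.17 CPM, and missed the threshold (-0.60 ± 0.226, edgeR adjusted p = 0.0521). DESeq2 called it lower (-0.57, DESeq2 adjusted p = 0.0384).

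In the H3K9 methyltransferase class, which includes the corepressor gene Trim28, 1 of 7 genes was higher and 2 were lower. Of all genes 19.7% were higher and 16.6% lower. Ehmt2 (G9a) and Ehmt1 (GLP) form the dimer that places mono- and dimethylation in euchromatin, and both were lower. Ehmt2 read 45.3 CPM, 59.6 CPM and 62.1 CPM in the lowest, median and highest control and 40.2 CPM, 44 CPM, 45.1 CPM and 33.8 CPM in KO livers, so KO 3 was only just below the lowest control (-0.49 ± 0.114, edgeR adjusted p = 0.00464). Ehmt1 read 20.8 CPM, 22.6 CPM and 30 CPM in controls and 14.9 CPM, 17.9 CPM, 16.1 CPM and 21.5 CPM in KO livers, with KO 4 inside the control range (-0.43 ± 0.128, edgeR adjusted p = 0.0195). Both calls were lost when counts were scaled by library size alone and in the FPKM values. The Ehmt1 call was also lost without KO 2 or without KO 3, and its exons overlap those of Gm37139 on the same strand.

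Setdb1, which trimethylates H3K9 at transposable elements, was higher, with 24.7 CPM, 29 CPM and 31.1 CPM in controls and 31.6 CPM, 39.9 CPM, 36.1 CPM and 32 CPM in KO livers (0.30 ± 0.0959, edgeR adjusted p = 0.0282). The distance between KO 1 and the highest control was small, the call was lost without MCS 2, without KO 2 or without KO 3, and the exons overlap Cers2 on the other strand. Trim28, the corepressor that brings SETDB1 to its targets, read 52.7 ± 3.26 CPM in controls and 51.6 ± 4.15 CPM in KO livers. Setdb2 (0.11 ± 0.146) and the pericentromeric methyltransferase genes Suv39h1 (0.0041 ± 0.152) and Suv39h2 (0.30 ± 0.246) were not called.

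Of the HP1 genes, Cbx1 (HP1β) was lower. It read 31.4 CPM, 32.5 CPM and 37.4 CPM in controls and 26.8 CPM, 25.8 CPM, 23.6 CPM and 23.1 CPM in KO livers, all below the controls (-0.43 ± 0.0871, edgeR adjusted p = 0.00187). The call was not kept in the FPKM values. Cbx3 (HP1γ) also lay below all controls in all 4 KO livers, 10 CPM to 11.8 CPM against 12.1 CPM to 13.7 CPM, and missed the threshold (-0.24 ± 0.0952, edgeR adjusted p = 0.0653). Cbx5 (HP1α) read 31.2 ± 3.78 CPM in controls and 33 ± 2.47 CPM in KO livers. The log2 ratio of Cbx5 to Cbx1 counts was -0.11 ± 0.162 in controls and 0.41 ± 0.188 in KO livers. That difference of 0.52 had the smallest p of the 8 ratios compared (two-sided exact permutation p = 0.00952, 0.0762 adjusted over the 8), where the smallest p that 4 against 6 samples allow is 0.00476.

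The other ratios did not pass either. Dnmt1 to Dnmt3a was lower by 0.60 on the log2 scale (two-sided exact permutation p = 0.0333, adjusted 0.133) and Tet3 to Tet2 higher by 0.34 (p = 0.0571 by the same exact test, adjusted 0.152). Kdm6b to Kdm6a differed by 0.14, Cbx2 to Cbx7 by -0.25 and Suv39h1 to Suv39h2 by -0.30.

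Against the WT Cre controls, which share the virus with KO, 7 members were higher and 4 lower, beside 15.3% higher and 13.1% lower of all genes. Against the MCS controls, which share the floxed alleles, 10 were higher and 5 lower, beside 17.3% and 14.8% of all genes. These comparisons share the 4 KO livers and are given side by side. The 3 largest values were alike in size against both kinds of control: Resf1 had log2 fold changes of 3.60 against WT Cre and 3.81 against MCS, Uhrf1 2.40 and 2.38, and Dnmt3a 1.40 and 1.37. Rbbp4 had -0.50 and -0.57, Rbbp7 -0.51 and -0.46, and Cbx1 -0.37 and -0.50. Calls lost against WT Cre were those of Setdb1 (edgeR adjusted p = 0.146), Cbx6 (0.0687), Hells (0.0702), Phc2 (0.158), Ehmt1 (0.125) and Dnmt1. Those lost against MCS were Kdm6a (edgeR adjusted p = 0.203) and Phc2 (0.0972). Dnmt1 was the member whose values differed most among those called, with 0.42 against WT Cre (edgeR adjusted p = 0.132) and 0.87 against MCS (edgeR adjusted p = 0.00618). Its WT Cre livers lay between 13.4 CPM and 14.8 CPM and its MCS livers between 9 CPM and 11.2 CPM, and the difference between the 2 kinds of control had an edgeR adjusted p of 0.484.

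Between the 2 kinds of control, edgeR called 0 of 39 members, beside 0.927% of all genes in either direction. DESeq2 called 0 as well, and 1 member, Cbx5, had an unadjusted p under the threshold of 0.05 in the edgeR fit, with an adjusted p of 0.454. Control columns carry only a number, and their match to a kind of control rests on the library numbers in the labels. Values of KO against the 6 controls as 1 group are free of it.

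**Figure D3:**
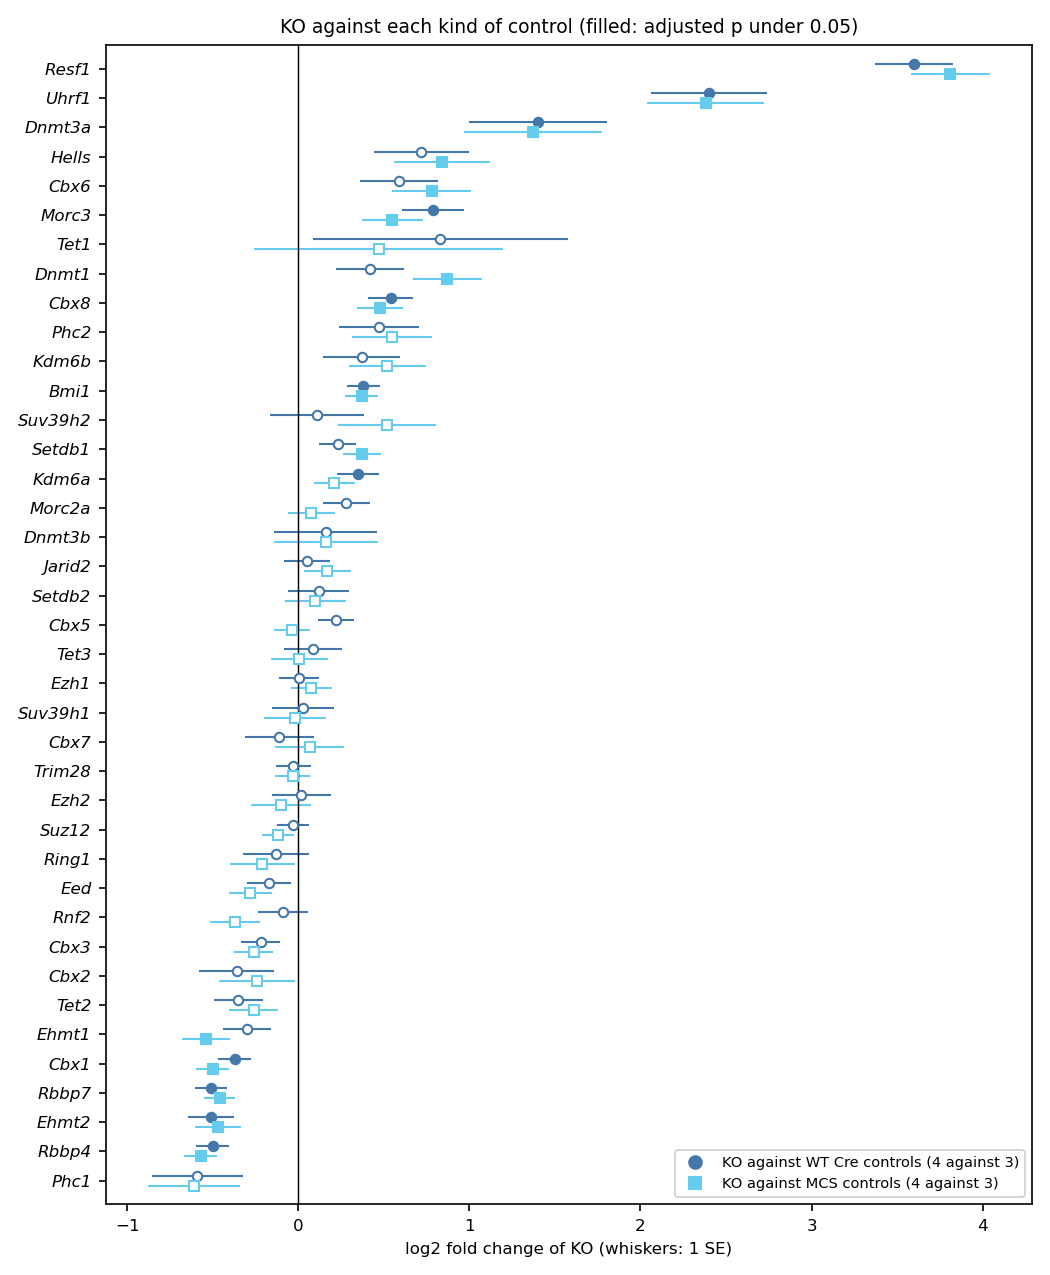
Log2 fold change of KO against the 3 WT Cre controls (circles) and against the 3 MCS controls (squares) for the 39 members, with 1 SE as whiskers and filled symbols for an adjusted p under 0.05. Resf1 lies near 3.70, Uhrf1 near 2.39 and Dnmt3a near 1.38 against both, and the largest gap among called members is that of Dnmt1 at 0.42 and 0.87.

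Marker genes of other cells moved with the KO group, where 19.7% of all genes tested were higher and 16.6% lower. The 10 Kupffer cell markers were all called higher, and their summed level was 248 CPM to 468 CPM in controls and 579 CPM to 1260 CPM in KO livers. Of 10 stellate cell markers 9 were higher (219 CPM to 281 CPM against 497 CPM to 794 CPM), and of 10 lymphoid markers 7 were higher (4.42 CPM to 8.37 CPM against 6.78 CPM to 25.9 CPM). Of 9 endothelial markers 1 was higher (271 CPM to 340 CPM against 285 CPM to 507 CPM), of 8 cholangiocyte markers 1 (50 CPM to 80.8 CPM against 71.2 CPM to 88.4 CPM) and of 4 neutrophil markers 3 (1.59 CPM to 8.72 CPM against 3.58 CPM to 15.6 CPM). Of 10 hepatocyte markers 9 were lower, with sums of 121000 CPM to 165000 CPM in controls and 88100 CPM to 106000 CPM in KO livers. The cholangiocyte markers Cftr and Sctr and the neutrophil marker Retnlg were at or near 0 in some livers, and 2 further neutrophil markers were below the filter. Of 37 cell cycle genes 26 were higher and 2 lower, with sums of 127 CPM to 146 CPM in controls and 160 CPM to 226 CPM in KO livers.

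KO 1 had the smallest sum among the KO livers for the Kupffer, stellate, lymphoid and endothelial markers and for the cell cycle genes, and it was also the lowest KO liver for Uhrf1, Dnmt1, Dnmt3a, Hells, Cbx6, Morc3 and Phc2. KO 4 had the largest Kupffer, stellate and endothelial sums and the largest Dnmt3a, Dnmt1, Uhrf1, Morc3 and Phc2 values. Rbbp4, Cbx1 and Ehmt2, which were called lower, were lowest in KO 4. Not all followed that order: Resf1 was lowest in KO 4, Cbx8 was highest in KO 1 and Setdb1 in KO 2. The cell cycle sum was largest in KO 3, the lymphoid sum in KO 2 and the cholangiocyte sum in KO 1. The part of cell makeup and of cell division in the members' changes was not tested.

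**Figure D4:**
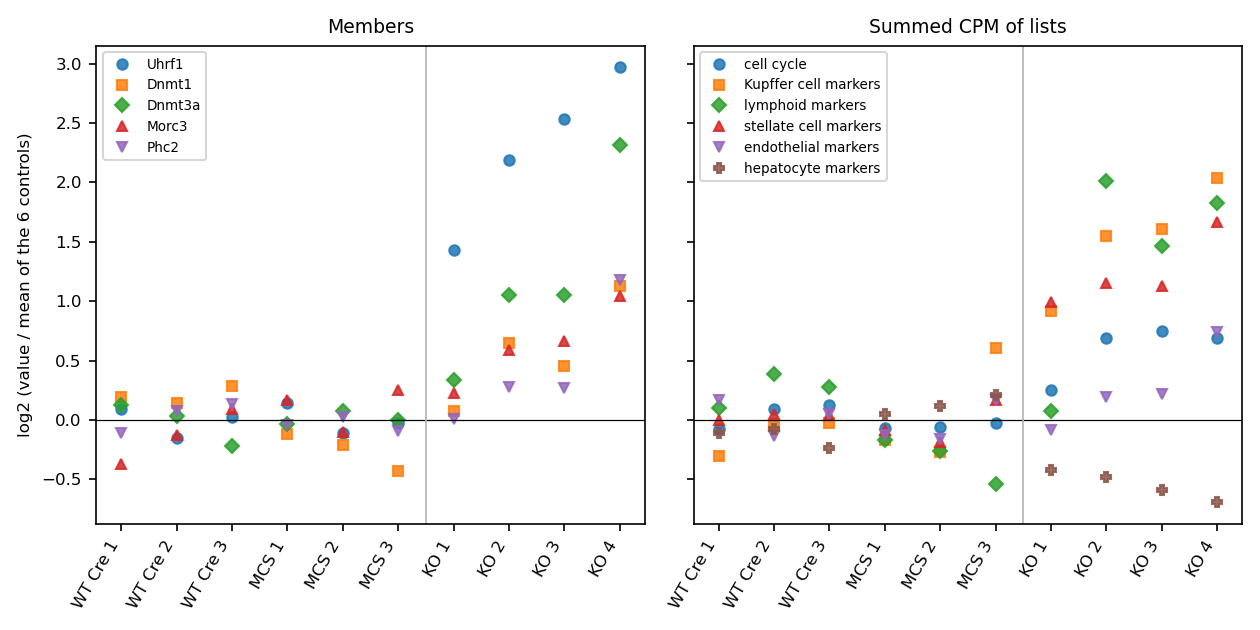
Log2 of each liver's value over the mean of the 6 controls, for 5 members on the left and for the summed CPM of cell cycle genes and 5 marker lists on the right. In both panels KO 1 is the KO liver nearest the controls for most series, while KO 4 is highest for Dnmt3a, Uhrf1, Dnmt1, Phc2 and the Kupffer and stellate sums.

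Other genes of the same machinery, outside the 39, numbered 94 tested of 99 listed in 6 lists. Of these 28 were higher (29.8%) and 16 lower, beside 19.7% and 16.6% of all genes, with a median log2 fold change of 0.03. The share that was lower is near that of all genes. In 1 of the further PRC1 genes, Scml2, and 1 of the DNA methylation readers and cofactors, no control had more than 3 counts. These could pass the filter through KO counts, so the counts describe the lists and test nothing about them. Among 7 tested accessory genes of PRC2, Aebp2 was higher (0.91 ± 0.158, edgeR adjusted p = 0.000707), and Epop and Lcorl were lower at -1.20 and -0.35. Of 26 further PRC1 genes 9 were higher and 5 lower. Pcgf6 was higher by 0.65 and Auts2 by 1.47 on the log2 scale. Scml2 had at most 2 counts in any control and was at 0 to 0.0814 CPM in controls and 0.126 CPM to 1.46 CPM in KO livers. H2A deubiquitination genes gave 2 higher (Asxl2 at 0.45 and Usp16 at 0.36) and 2 lower (Mbd6 at -0.38 and Mbd5 at -0.39) of 10.

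Of 21 tested HUSH genes and H3K9 cofactors 6 were higher and 5 lower, beside 19.7% and 16.6% of all genes. Trim24, a TRIM-family relative of TRIM28, had the largest difference, from 15 CPM to 30.4 CPM in controls to 118 CPM, 103 CPM, 94 CPM and 136 CPM in KO livers (2.40 ± 0.171). Atf7ip, the nuclear partner that stabilises SETDB1, rose by 1.15 ± 0.0957, Kmt5a, the H4K20 monomethyltransferase, by 0.90 ± 0.115 and Tasor2 by 0.87 ± 0.165. Of 10 H3K9 demethylase genes only Kdm4b passed (0.27 ± 0.0963). Kdm4b begins 2.58 kb after the end of Uhrf1 on the same strand.

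DNA methylation readers and cofactors gave 9 higher and 2 lower of 20, beside 19.7% and 16.6% of all genes. Among the 20, 1 gene had no more than 3 counts in any control and could pass the filter through KO counts. Mbd1, a methyl-CpG binding repressor, read 41.4 CPM to 228 CPM in controls and 1210 CPM, 1450 CPM, 1090 CPM and 1270 CPM in KO livers (3.77 ± 0.47, edgeR adjusted p = 0.000259), a difference of the size seen for Resf1. Zbtb4 was higher by 0.93 and Mbd4 by 1.23, and Cxxc5 lower by 0.73 on the log2 scale.

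Lists of genes described elsewhere as silenced by Polycomb or DNA methylation were read beside the members. Whether they are silenced in that way in these livers was not tested. Of 29 Polycomb target genes 19 stayed below the filter on low counts in these livers. Among the 10 tested 5 were higher and none was lower, beside 19.7% and 16.6% of all genes. Wt1 was at 0.167 CPM to 0.448 CPM in controls and 0.652 CPM to 1.14 CPM in KO livers, Tbx2 rose by 0.87 ± 0.183 and Wnt5a by 1.20 ± 0.321, and Cdkn2a, with at most 3 counts in any control, was at 0 to 0.134 CPM in controls and 0.158 CPM to 0.459 CPM in KO livers. Of 23 germline genes listed as silenced by DNA methylation 18 stayed below the filter. Of the 5 tested, Tex19.1 was higher, with 0 to 0.13 CPM in controls and 0.261 CPM, 0.119 CPM, 0.927 CPM and 1.99 CPM in KO livers, so that KO 2 lay within the control range, and Brdt and Sycp3 were lower at -1.08 and -1.32. Genes that pass the filter only through KO counts had to differ, so these counts describe the lists and test nothing about them.

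Of 24 tested imprinted genes 15 were higher and 2 lower, beside 19.7% and 16.6% of all genes. In 2 of the 24 no control had more than 3 counts, so they could pass the filter through KO counts. The count describes the list and tests nothing about it. Phlda2 read 0.0446 CPM to 0.304 CPM in controls and 3.13 CPM to 9.23 CPM in KO livers, Cdkn1c rose by 1.86 ± 0.207 and Mirg by 5.79 ± 0.662, and Gnas fell by 0.98 on the log2 scale, from 125 CPM to 140 CPM in controls to 55.8 CPM to 74.7 CPM. Named after their values were seen, Igf2 had at most 2 counts in any control and 2.22 CPM, 73.5 CPM, 115 CPM and 105 CPM in KO 1 to KO 4, and the maternally expressed RNAs Meg3 (11.4 CPM, 83.9 CPM, 114 CPM and 56.9 CPM) and Rian (6.45 CPM, 46.8 CPM, 63.7 CPM and 37.1 CPM), the neighbours of Mirg, were higher as well. In all 3 KO 1 was the lowest KO liver and still above every control.

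**Figure D5:**
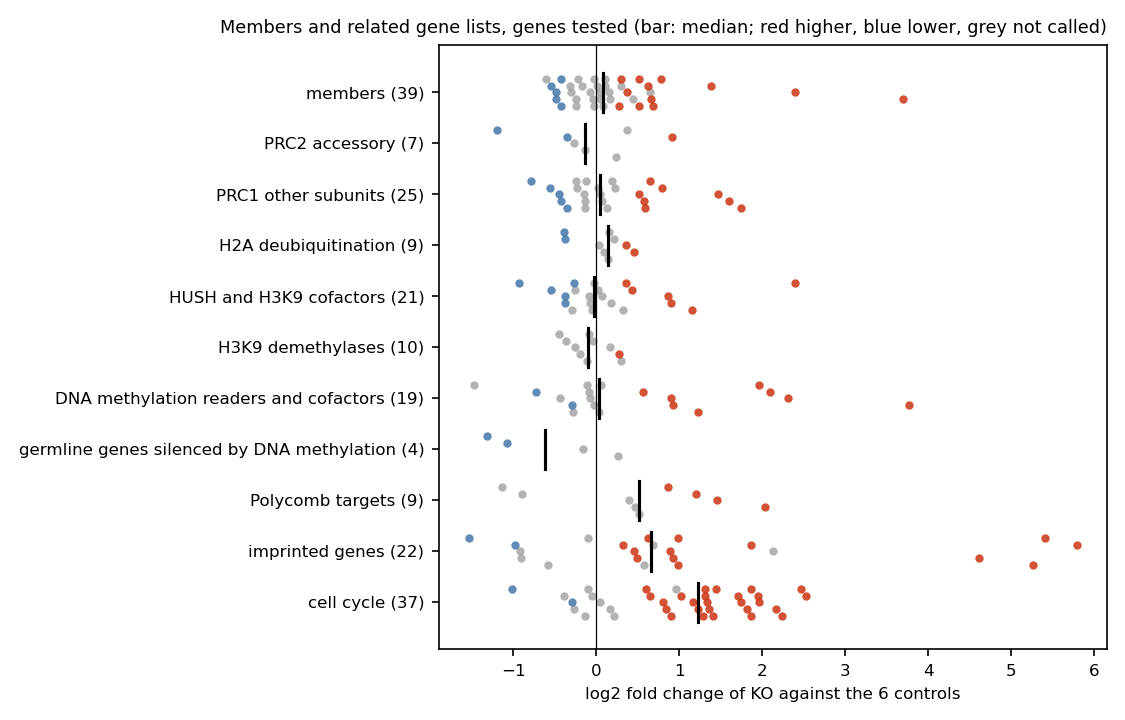
Log2 fold change of KO against the 6 controls for the members and for each related list, with 1 point per gene tested, a black bar at the median, and red for higher, blue for lower and grey for not called. Genes with no more than 3 counts in every control are not drawn. The member median of 0.086 lies close to 0, while the cell cycle genes lie mostly to the right.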

How the data were processed

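Poly(A) RNA was sequenced from whole liver of 4 H3.3 KO mice, 3 WT Cre controls and 3 MCS controls. The authors trimmed reads with Trim Galore, aligned them to mm10 with STAR and deposited raw counts per gene. Per the labels, the submitters' processing notes name STAR, HTSeq and Cufflinks, while the methods name the HOMER analyzeRepeats script for counting. Strand setting and multi-mapped reads are not given in the sources used here, so overlapping, antisense and pseudogene-sharing genes are uncertain. The authors also deposited FPKM values, with 268042 blank cells, none of them in the members. KO columns were matched to samples by replicate number, and control columns by library number.

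Members, gene lists and tests were chosen with earlier results of these data known. Genes with at least 10 counts summed over all samples were kept, as in the study. The main test was edgeR 4.0.16 (R 4.3.3; quasi-likelihood, TMM, robust, no covariates), two-sided, with Benjamini-Hochberg adjustment over all genes and a threshold of 0.05. KO was fitted against all 6 controls, and the single kinds of control in a fit of all 3 groups. Fold changes are log2 ± SE, and CPM are TMM-scaled. Libraries of 14998426 to 26096141 counts, in which members had 1 to 8575 counts, set the precision. Ratios used log2 of counts plus 0.5 and exact permutation over the 210 splits. Alternatives were DESeq2 1.42.0, limma 3.58.1 on log2(FPKM + 1) and log2(FPKM + 0.1), library size scaling, other filters, a replicate block and leaving out each sample. Scripts were tested on simulated data. Named were all 39 members and, of each related list, up to 4 called genes with the smallest adjusted p, except 1 that is not reported here. Coordinates come from GENCODE M21 (GRCm38) and promoters from RefSeq GRCm38.p6. Motifs were searched on both strands.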

Additional observations from a re-analysis of the deposited data

Results flagged for a closer look

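In 6 of the 94 groups examined, 1 liver stood apart from the others of its group by Dixon's criterion, where about 4.7 flags (1 in 20) are expected by chance. KO 4 gave 3 of them. Its Resf1 level was 190 CPM beside 315 CPM to 339 CPM in the other KO livers, its Phc2 level 78.8 CPM beside 34.9 CPM to 42.2 CPM, and its Tet1 level 0.344 CPM beside 0.0652 CPM to 0.0843 CPM, the last from at most 9 counts. Ezh2 was at 3.75 CPM in KO 3 beside 4.32 CPM to 4.43 CPM, and Tet2 at 6.58 CPM in KO 1 beside 8.53 CPM to 8.89 CPM. Ehmt1 was at 30.0 CPM in MCS 1, above 20.8 CPM to 24.2 CPM in the other 5 controls. Of these genes, Resf1, Phc2 and Ehmt1 were called, and without the liver that stood apart only the Phc2 call was lost.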

How the results depend on the processing

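Of the 17 called members, 9 kept call and direction under every alternative run and 8 lost the call under at least 1. Of 22 members not called, 7 were called under at least 1 alternative: Phc1, Kdm6b, Morc2a, Cbx3, Eed, Jarid2 and Tet2. Members called lower numbered 3 with library size scaling and 2 with either FPKM scale, against 5. Scaled by library size alone, 2 members were lower against WT Cre and 1 against MCS. Leaving out 1 liver gave 4 to 11 higher and 3 to 5 lower against WT Cre, and 8 to 17 called, 4 to 12 higher and 3 to 7 lower against MCS. The lowest of these came without WT Cre 2 (4 higher) and without MCS 2 (8 called, 4 higher). The cause was not tested.

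No called member changed sign, and 10 members not called did. With library size scaling the log2 fold changes were 0.14 for Ezh2, 0.11 for Suz12, 0.15 for Cbx7 and 0.14 for Trim28. On log2(FPKM + 1) they were 0.063 for Ezh2, 0.045 for Eed, 0.12 for Suz12, 0.056 for Cbx7, 0.04 for Trim28 and -0.038 for Tet1. On log2(FPKM + 0.1) they were 0.089, 0.048, 0.15, 0.085, 0.041 and -0.26 for those genes and 0.0018 for Cbx2. Leaving out 1 liver gave -0.024 to 0.11 for Ezh1, -0.096 to 0.023 for Ezh2, -0.14 to 0.05 for Cbx7, -0.061 to 0.082 for Suv39h1, -0.28 to 0.88 for Tet1 and -0.043 to 0.17 for Tet3. The ratio of Ezh2 to Ezh1 ranged from -0.15 to 0.059.

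Correlations of same-numbered samples were -0.0387 to 0.111 over 9 pairs, beside -0.154 to 0.194 for other pairs, and 5 of 9 samples correlated best with their own number. Whether replicate numbers pair the samples was not tested. The replicate block gave 8 higher and 6 lower members, lost Dnmt1, Hells, Kdm6a and Phc2 and added Eed. Under the block Cbx7 was at 0.059, Tet1 at -0.28 and Tet3 at -0.014. Counting error weighs on members with few counts, such as Tet1 with 1 to 9 counts in a library, Suv39h2 with 11 to 37 and Phc1 with 15 to 87.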
